A study of Homo sapiens with 31 samples.

Results

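The integrated stress response and the unfolded protein response were described here through 34 genes, 18 of an ATF4 branch and 16 of an endoplasmic reticulum (ER) chaperone branch. The members were listed by symbol, with earlier results of these data known, and all 34 were measured among 17314 genes, each by 1 probe set. RNA came from xenograft tumours of PC3, an established human prostate carcinoma line without functional p53, in a series on resistance to metronomic cyclophosphamide (CPA). CPA is a prodrug that the liver activates to a DNA crosslinker. The resistant clones D4 and D3 and the sensitive clone A3 had been re-isolated after passage in animals, and the sensitive parental line wt was unpassaged. In the tumours called CPA-treated, 120 mg/kg CPA was given intraperitoneally once tumours averaged 30 mm3, and the control tumours were untreated; the labels give no dosing schedule. The 8 groups were CPA-treated and untreated D4, D3, A3 and wt, with 4 arrays each except untreated A3, which had 3 because the submitters left out 1 of 32 planned arrays as an outlier. Each clone is 1 isolate, so a difference between lines belongs to those lines, and all groups share the tumour setting and the PC3 origin. Whether every array came from a separate animal is not stated in the labels, so p-values reflect only how far these samples vary, and some of that may be technical.

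Cells answer a load of misfolded protein in the ER through the sensors PERK, IRE1 and ATF6. PERK and related kinases phosphorylate the translation factor eIF2, which lowers protein synthesis in general but favours translation of the transcription factor ATF4. ATF4 then raises genes for amino acid uptake and synthesis, for mitochondrial folate metabolism and, under lasting stress, for cell death. IRE1, through splicing of XBP1, and cleaved ATF6 raise ER chaperones, disulfide isomerases and genes that send misfolded protein to the proteasome. Amino acid shortage and other stresses feed into ATF4 without the ER sensors, so the branches can move apart. ATF4, XBP1 and ATF6 are set largely by translation, splicing and cleavage, which an array of total RNA levels does not read.

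Values are log2 expression levels, on which a difference of 1 is a 2-fold change, and calls were made at adjusted p under 0.05, taken over all 17314 genes. Arrays of a group correlated with the rest of the group at 0.988 to 0.997. Of the 34 members, 29 had a mean level above the 50th percentile of all genes, from ALDH1L2 at percentile 17 to HSP90B1 at percentile 99.9. The SD within groups ran from 0.0568 for PDIA6 to 0.209 for VLDLR. The epithelial keratins KRT8, KRT18 and KRT19 lay at percentiles 94.7, 95.1 and 96.8 and the prostate factor HOXB13 at 97.5, while the androgen-driven KLK3 and KLK2 lay at 28.6 and 27.2. The other epithelial markers EPCAM, KRT7 and CDH1 lay lower, at 78.5, 43 and 34.4, and the prostate marker ACP3 lay at 35.2. Among markers of host cells, DCN, LUM, POSTN, EMCN and PTPRC lay at percentiles 1.11 to 3.4, but COL1A1, COL1A2, KDR and CD68 lay at 94.7, 90.1, 78.8 and 79.6. The arrays carry human probes, and the host cells of a xenograft are of another species. The levels of these markers thus cannot tell RNA of host cells from RNA of the tumour cells, and do not measure host content. The mean level of the 8 fibroblast markers ran from 6.03 to 6.20 in untreated D4, 6.12 to 6.26 in D3 and 5.89 to 6.16 in A3, against 6.11 to 6.21 in wt. For the 7 endothelial markers the untreated ranges were 5.94 to 6.14, 5.96 to 6.09 and 5.88 to 6.02, against 6.03 to 6.26, and the CPA-treated ones 5.90 to 5.98, 5.94 to 6.23 and 6.04 to 6.13, against 6.01 to 6.14. For the 8 myeloid markers they were 5.42 to 5.60, 5.46 to 5.54 and 5.50 to 5.68, against 5.45 to 5.73, in untreated tumours. For the 3 erythroid markers they were 5.68 to 5.91, 5.58 to 5.70 and 5.57 to 5.76, against 5.68 to 5.75. In CPA-treated tumours the fibroblast, myeloid and erythroid means of each clone overlapped those of wt. Among single markers COL3A1 was lower than in wt in untreated D4, D3 and A3 by -0.77, -0.61 and -1.01 and KDR by -1.74, -1.01 and -1.19, and CD68 was higher in D4 and A3 by 0.30 and 0.42. These single markers do not stand for their lists. The fibroblast and myeloid means of all 3 untreated clones overlapped those of wt, as did the endothelial means of untreated D4 and D3. The part of the markers in the results was not tested.

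**Figure D1:**
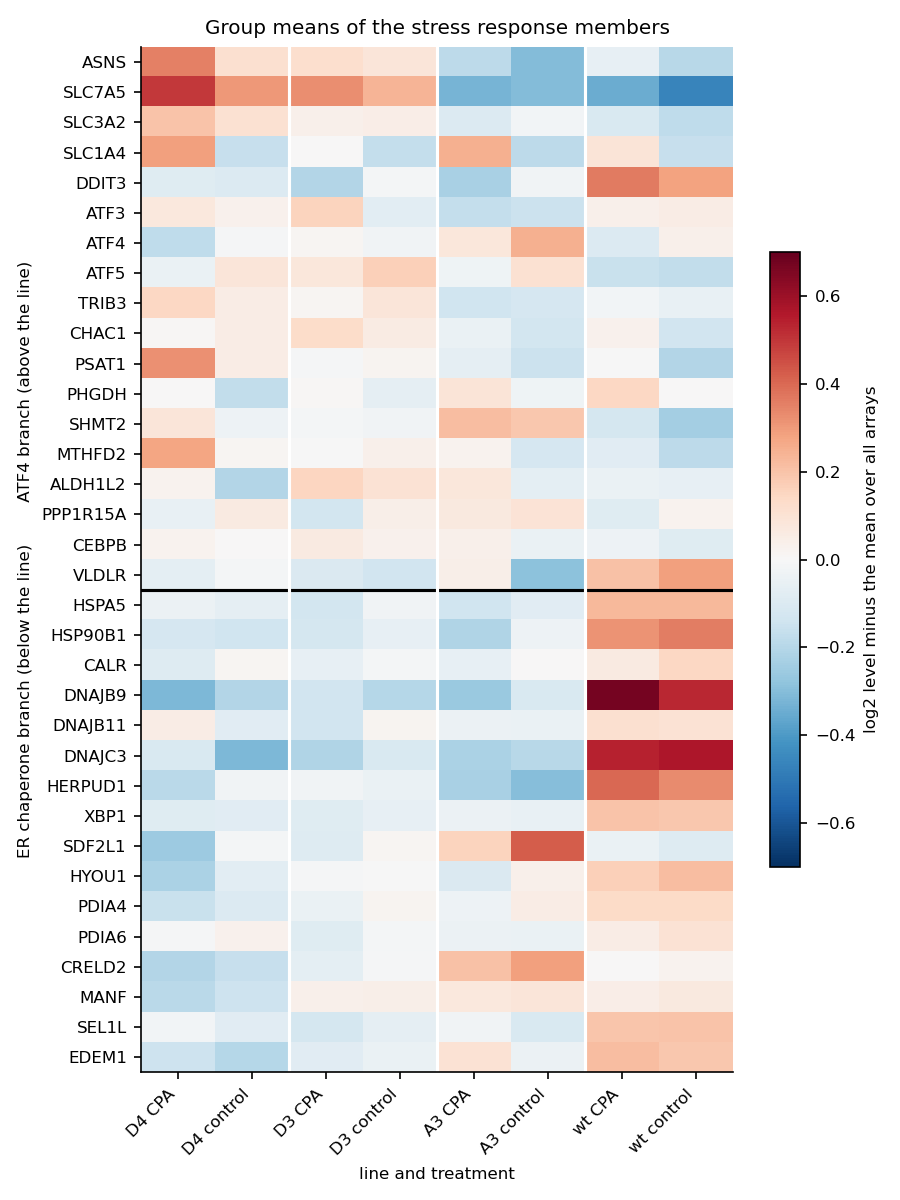
Mean log2 level of each of the 34 members in the 8 groups, as the difference from the member's mean over all 31 arrays (red higher, blue lower). Columns run from D4 to wt with CPA-treated left of untreated (control) tumours. Most ER members below the line are red in both wt columns, and SLC7A5 is red in the 4 columns of D4 and D3.

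The ER chaperone branch was lower in all 3 clones than in wt, with and without CPA. Averaged over its 16 members, the level relative to all arrays lay between -0.18 and -0.05 in untreated D4, -0.06 and 0.02 in D3 and -0.10 and 0.04 in A3, against 0.14 to 0.27 in wt. In CPA-treated tumours it lay between -0.14 and -0.10 in D4, -0.12 and -0.07 in D3 and -0.07 and -0.02 in A3, against 0.08 to 0.25 in wt. Every wt array was thus above every clone array. In untreated tumours 11 of 16 members were called lower in D4, 7 in D3 and 6 in A3, where 10.9%, 8.4% and 8.36% of all genes were called lower. None was called higher in D4 or D3, and 2 were in A3, where 9.22%, 9.69% and 10.1% of all genes were called higher. With only the groups compared in the fit the count of lower members was 5 in D4, it was 7 in D4 without D4 replicate 5 and 4 in D3 without wt replicate 2, and the count of higher members in A3 was 1 with only the groups compared or without any 1 of A3 replicates 1 and 4 and wt replicates 2 and 4. The median difference of the branch was -0.28, -0.23 and -0.20, beside 0.05, 0.02 and 0.04 over all genes. The 3 comparisons share the wt arrays, so a feature of those arrays enters each of them. In RNA of whole tumours, fewer cells of a type and less RNA per cell cannot be told apart. Some marker lists were lower along with the branch. The mean of the 6 epithelial markers ran from 8.51 to 8.84 in untreated D4, 8.62 to 8.81 in D3 and 8.53 to 8.55 in A3, against 8.67 to 8.90 in wt, and from 8.42 to 8.74, 8.63 to 8.76 and 8.44 to 8.51, against 8.62 to 8.82, in CPA-treated tumours, so that A3 lay below wt without overlap. The mean of the 4 prostate markers also lay below wt without overlap in A3, at 7.11 to 7.12 against 7.14 to 7.40 untreated and 7.10 to 7.21 against 7.23 to 7.28 CPA-treated, as did the endothelial mean in untreated A3 and CPA-treated D4. Their part in these differences was not tested.

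Of the 3 J proteins that recruit the chaperone BiP, DNAJB9 and DNAJC3 were lower in all 3 clones. DNAJB9 (ERdj4), which also holds IRE1 inactive, stood at 6.84, 6.59, 6.40 and 6.38 in untreated D4, 6.29, 6.74, 6.66 and 6.57 in D3 and 6.64, 6.69 and 6.62 in A3, against 7.08, 7.54, 7.45 and 7.08 in wt. All arrays of each clone lay below all wt arrays, and the differences were -0.73 ± 0.11 SE, -0.73 ± 0.11 SE and -0.64 ± 0.12 SE (adjusted p 9.4e-06, 1.3e-05 and 2.0e-04). DNAJC3 (p58IPK), a BiP co-chaperone that binds unfolded proteins, stood at 7.98, 8.25, 7.85 and 8.08 in untreated D4, 8.28, 8.29, 8.11 and 8.30 in D3 and 8.38, 7.86 and 8.23 in A3, against 8.98, 9.12, 8.84 and 8.74 in wt. Again no clone array reached a wt array, and DNAJC3 was 1.84-fold, 1.6-fold and 1.69-fold lower (adjusted p 2.9e-06, 1.4e-04 and 7.8e-05). The J protein DNAJB11 (ERdj3) was not called in untreated tumours, with differences of -0.18, -0.08 and -0.15. It was lower in CPA-treated D3 than in CPA-treated wt (-0.25 ± 0.08 SE, adjusted p 0.0301), a call lost without any 1 of D3 replicate 5 and wt replicates 2, 3 and 5 (adjusted p 0.0581 to 0.152). SDF2L1, a partner of DNAJB11, is described with CRELD2.

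The abundant chaperones were lower by smaller amounts. HSP90B1 (GRP94), the HSP90 of the ER, stood at 12.34, 12.23, 11.82 and 12.23 in untreated D4, 12.36, 12.27, 12.19 and 12.11 in D3 and 12.36, 12.09 and 12.31 in A3, against 12.59, 12.71, 12.68 and 12.62 in wt. The clone arrays all lay below the wt arrays, by -0.50 ± 0.10 SE, -0.42 ± 0.10 SE and -0.40 ± 0.10 SE on average (adjusted p 2.9e-04, 0.00205 and 0.00617). In A3 the call was lost without A3 replicate 2 (adjusted p 0.0628). HSPA5 (BiP), the HSP70 of the ER that also keeps the sensors inactive, stood at 11.75, 11.92, 12.06 and 11.87 in untreated D4, 11.85, 11.94, 12.00 and 11.93 in D3 and 11.96, 11.81 and 11.87 in A3, against 12.12, 12.29, 12.13 and 12.20 in wt. Here too the arrays did not overlap, and HSPA5 was lower by -0.29 ± 0.07 SE, -0.25 ± 0.07 SE and -0.31 ± 0.08 SE (adjusted p 0.0041, 0.0114 and 0.00484). Without wt replicate 2 the adjusted p for D3 was 0.0513. When only the 2 groups compared were fitted, the adjusted p was 0.0805 for D4 and 0.0583 for A3. HYOU1 (GRP170), the nucleotide exchange factor of BiP, was called lower in untreated D4 (-0.29 ± 0.09 SE, adjusted p 0.0264, arrays overlapping) and was not called in D3 or A3, with differences of -0.22 and -0.18. That call was lost without any 1 of D4 replicates 1, 2 and 5 and wt replicates 1 and 3 (adjusted p 0.0596 to 0.0897). The lectin chaperone CALR was not called, at -0.13, -0.16 and -0.14.

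HERPUD1, a membrane protein that organises ER-associated degradation, stood at 10.47, 10.35, 10.34 and 10.14 in untreated D4, 10.28, 10.40, 10.31 and 10.23 in D3 and 10.07, 9.78 and 10.31 in A3, against 10.66, 10.84, 10.72 and 10.51 in wt. All clone arrays lay below all wt arrays, and A3 held the lowest ones, with differences from wt of -0.36 ± 0.10 SE in D4, -0.38 ± 0.10 SE in D3 and -0.63 ± 0.11 SE in A3 (adjusted p 0.00817, 0.00549 and 5.7e-05). EDEM1, which extracts misfolded glycoproteins for degradation, was lower in D4 (-0.39 ± 0.08 SE, adjusted p 6.9e-04) and in D3 (-0.24 ± 0.08 SE, adjusted p 0.0382). SEL1L, the adaptor of the ubiquitin ligase SYVN1, was lower in D4 (-0.28, adjusted p 0.0368) and in A3 (-0.31, adjusted p 0.0342). XBP1 was lower in D4 (-0.27, adjusted p 0.0236) and in D3 (-0.24, adjusted p 0.0464), with arrays that overlapped. Of the disulfide isomerases, PDIA4 was lower in D4 (-0.23, adjusted p 0.0259) and PDIA6 was not called, at -0.07, -0.11 and -0.15. Several of these calls were near the threshold. XBP1 in D4 was lost without any 1 of D4 replicate 5 and wt replicates 1 and 2 (adjusted p 0.0695 to 0.0949), and PDIA4 in D4 was lost without any 1 of D4 replicates 1 and 5 and wt replicate 3 (adjusted p 0.0575 to 0.125). SEL1L was lost without any 1 of D4 replicates 1 and 4 and wt replicates 2, 3 and 4 (adjusted p 0.0665 to 0.144) in D4, and lost without any 1 of A3 replicate 2 and wt replicates 2, 3 and 4 (adjusted p 0.0623 to 0.309) in A3. In D3 EDEM1 was lost without any 1 of D3 replicates 1, 2 and 5 and wt replicates 2, 3 and 4 (adjusted p 0.0554 to 0.145) and XBP1 was lost without any 1 of D3 replicates 1, 2, 3 and 5 and wt replicates 1, 2 and 3 (adjusted p 0.062 to 0.154), and in the fit with the replicate number as a block they had adjusted p 0.0833 and 0.0889. Over both branches the count for untreated D3 against wt was 14 members, and it was 8 without any 1 of D3 replicates 2, 3 and 5, 9 without wt replicate 1 and 6 without wt replicate 2. With the replicate number as a block the count was 10, with SEL1L among them.

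CPA-treated clones, on separate arrays, were set against CPA-treated wt. There 10 of 16 ER members were called lower in D4, 9 in D3 and 6 in A3, and none was called higher. Of all genes 7.59%, 10.1% and 9.6% were called lower and 7.54%, 6.28% and 6.74% higher. Without A3 replicate 4, SDF2L1 and CRELD2 were called higher in CPA-treated A3, and CRELD2 alone was with array weights, median centring or quantile normalization. DNAJB9 stood at 6.37, 6.40, 6.49 and 6.51 in CPA-treated D4, 6.53, 6.69, 6.58 and 6.70 in D3 and 6.58, 6.52, 6.55 and 6.36 in A3, against 7.21, 7.52, 7.43 and 7.54 in wt. It was 1.98-fold, 1.75-fold and 1.9-fold lower (adjusted p 1.5e-07, 4.4e-06 and 3.5e-07). DNAJC3 stood at 8.41, 8.24, 8.13 and 8.21 in CPA-treated D4, 8.13, 8.27, 8.08 and 8.09 in D3 and 7.91, 8.02, 8.17 and 8.42 in A3, against 8.53, 9.06, 9.02 and 8.95 in wt. HERPUD1 stood at 10.17, 10.08, 10.07 and 10.33 in CPA-treated D4, 10.31, 10.41, 10.26 and 10.34 in D3 and 10.04, 10.32, 9.98 and 10.18 in A3, against 10.63, 10.86, 10.70 and 10.83 in wt. For each of these genes the clone arrays all lay below the wt arrays, DNAJC3 by -0.64, -0.75 and -0.76 and HERPUD1 by -0.59, -0.43 and -0.63 on average (highest adjusted p 0.00272). HSPA5 stood at 11.94, 11.94, 11.86 and 11.95 in CPA-treated D4, 11.87, 11.79, 11.84 and 11.81 in D3 and 11.75, 11.83, 11.74 and 11.97 in A3, against 12.02, 12.22, 12.28 and 12.23 in wt. HSP90B1 stood at 12.27, 12.14, 12.18 and 12.12 in CPA-treated D4, 12.22, 12.18, 12.09 and 12.18 in D3 and 11.79, 12.08, 12.27 and 12.17 in A3, against 12.52, 12.62, 12.66 and 12.61 in wt. Both chaperones were below wt in every clone array, HSPA5 by -0.27, -0.36 and -0.37 and HSP90B1 by -0.43, -0.44 and -0.53 (highest adjusted p 0.00903). The other ER members called lower were EDEM1, HYOU1, PDIA4, MANF and XBP1 in D4 (-0.36, -0.39, -0.29, -0.23 and -0.29), EDEM1, XBP1, SEL1L and DNAJB11 in D3 (-0.30, -0.28, -0.32 and -0.25) and HYOU1 in A3 (-0.27). Of these, XBP1 was lost without any 1 of D4 replicates 2 and 5 and wt replicate 3 (adjusted p 0.056 to 0.127) in D4 and lost without any 1 of D3 replicate 5 and wt replicate 3 (adjusted p 0.112 to 0.12) in D3, and SEL1L was lost without any 1 of D3 replicate 4 and wt replicates 2 and 5 (adjusted p 0.0595 to 0.0823) in D3. MANF in D4 was lost without D4 replicate 2 (adjusted p 0.0658), and HYOU1 in A3 was lost without any 1 of A3 replicates 1, 2 and 3 and wt replicates 2, 3 and 5 (adjusted p 0.0574 to 0.227). HYOU1 in A3 and XBP1 in D3 were also lost in fits of only the 2 groups and with quantile normalization, and HYOU1 in A3 with median centring.

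**Figure D2:**
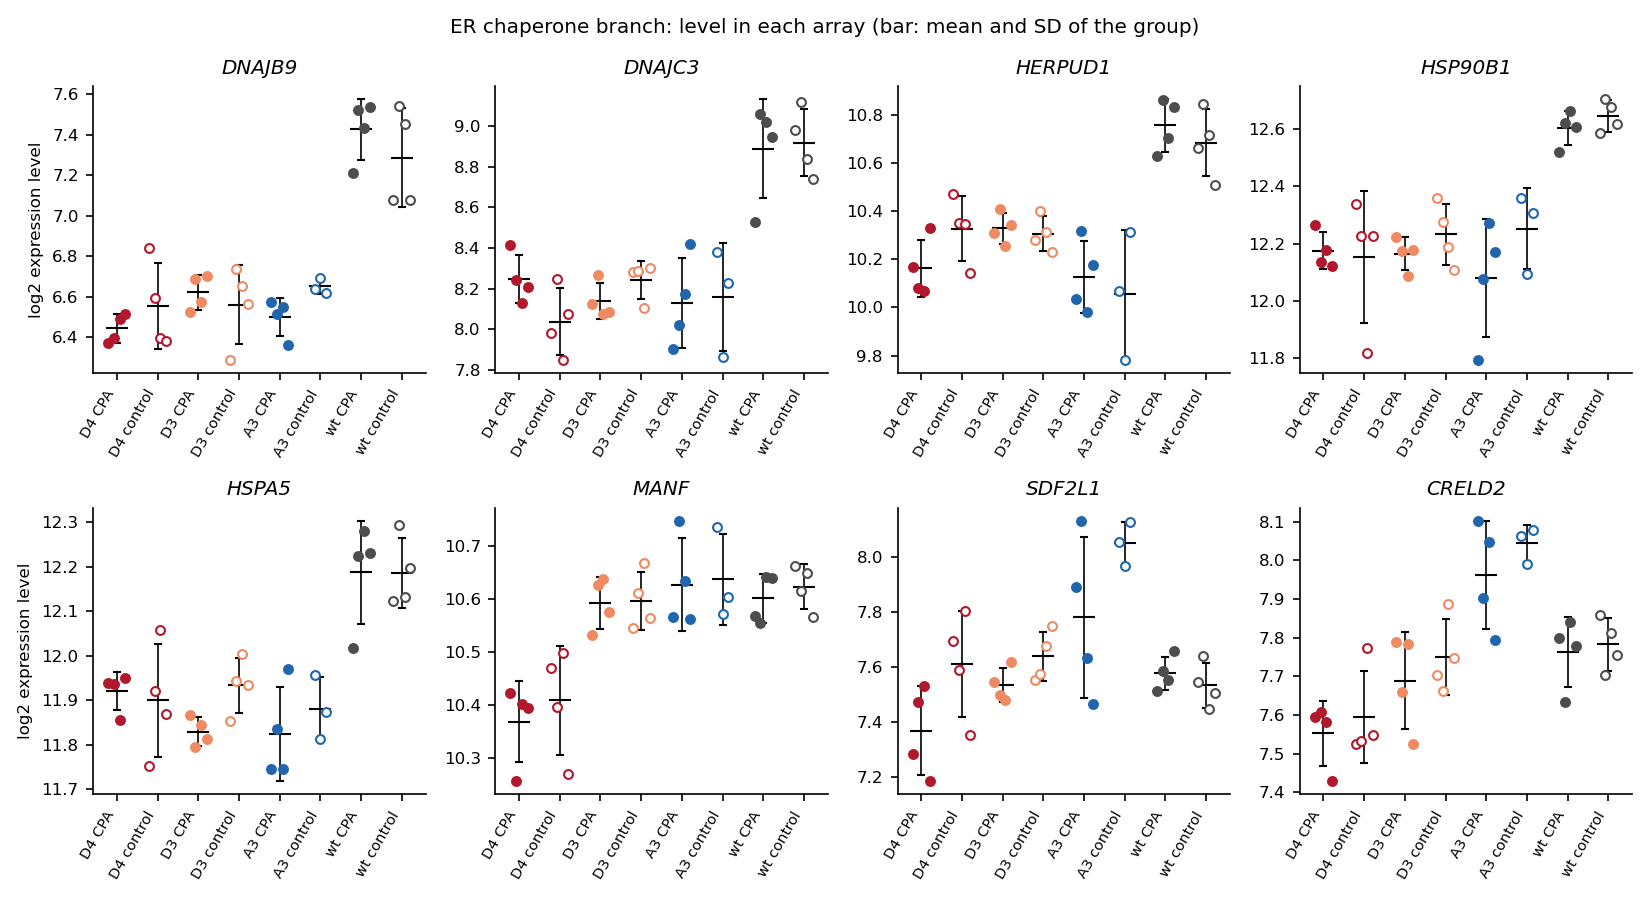
Log2 level of 8 ER chaperone branch members in every array. Each point is 1 array, filled for CPA-treated and open for untreated (control) tumours, and the bars give the group mean and SD (n = 3 for untreated A3, otherwise 4). DNAJB9, DNAJC3, HERPUD1, HSP90B1 and HSPA5 are lower in all 3 clones than in wt of the same treatment, MANF is lower in D4, and SDF2L1 and CRELD2 are highest in untreated A3.

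SDF2L1 and CRELD2 were exceptions, being higher in untreated A3 than in wt. SDF2L1 stood at 8.05, 7.97 and 8.12 in untreated A3, against 7.54, 7.64, 7.45 and 7.50 in wt, with every A3 array above every wt array (0.52 ± 0.11 SE, adjusted p 0.00141). CRELD2, a chaperone-like ER protein that can be secreted, stood at 8.06, 7.99 and 8.08 in untreated A3, against 7.86, 7.70, 7.81 and 7.76 in wt (0.26 ± 0.09 SE, adjusted p 0.0297). The call of CRELD2 was lost without any 1 of A3 replicates 1 and 4 and wt replicates 2 and 4 (adjusted p 0.0596 to 0.0991). In CPA-treated A3 the differences from wt were 0.20 ± 0.11 SE and 0.20 ± 0.08 SE, and neither was called (adjusted p 0.198 and 0.087). MANF, a secreted factor that protects stressed cells, stood at 10.47, 10.40, 10.50 and 10.27 in untreated D4, 10.55, 10.61, 10.67 and 10.56 in D3 and 10.74, 10.57 and 10.61 in A3, against 10.66, 10.62, 10.65 and 10.57 in wt. The D4 arrays were the low ones, and MANF was called lower than in wt in D4 and in neither other clone (-0.22 ± 0.06 SE, adjusted p 0.0165, and 0.0783 without D4 replicate 5).

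Of the 16 ER members, 9 hold an ER stress element in the promoter, as 0.157% of all genes do. The branch was listed for its part in the unfolded protein response, so a high share may follow from that choice. The 250 bases before each start listed in RefSeq (GRCh38.p14) were searched on both strands, in 35116 windows of 27305 genes. A gene with several starts had several windows, and a match in any of them counted. The motifs included the ER stress element ERSE, which NF-Y and ATF6 bind (CCAAT, any 9 bases and CCACG), and ERSE-II (ATTGG, any 1 base and CCACG). ERSE was found for 6 of 16 ER members, CALR, CRELD2, HSP90B1, HSPA5, PDIA6 and XBP1, and for 0.0916% of 27305 genes. ERSE-II was found for HERPUD1, HYOU1 and SDF2L1, against 0.0659% of genes. Neither was found for the 16 ATF4 branch genes with a promoter in the table, which left out SHMT2 and ALDH1L2. The unfolded protein response element UPRE (TGACGTGG) was found for HYOU1, where it overlapped an ERSE-II, and for 0.78% of genes. The ATF4 site CARE (TGATGNAA) was found for ASNS, ATF3, CHAC1 and HERPUD1, and for 3.89% of genes. None of the searched motifs was found for DNAJB9, DNAJC3, DNAJB11, PDIA4, MANF, SEL1L and EDEM1. Of the 11 ER members lower in untreated D4, HSP90B1, HSPA5, HERPUD1, XBP1 and HYOU1 hold an ERSE or ERSE-II, and so do CALR and PDIA6, which were not called in any comparison, and CRELD2 and SDF2L1, which were higher in untreated A3. A match is a description of the letters and not a measured binding site. The matches of ASNS and PDIA6 lie before a start inside the span of the gene. The stretches that hold the matches are given 5′ to 3′ along the gene, with the matches in capitals, for ER members lower in the clones (HSP90B1, HSPA5 and HERPUD1), for the A3 exceptions (SDF2L1 and CRELD2) and for ASNS.
HSP90B1 (chr12:103930210-103930409, plus strand, an ERSE on each strand): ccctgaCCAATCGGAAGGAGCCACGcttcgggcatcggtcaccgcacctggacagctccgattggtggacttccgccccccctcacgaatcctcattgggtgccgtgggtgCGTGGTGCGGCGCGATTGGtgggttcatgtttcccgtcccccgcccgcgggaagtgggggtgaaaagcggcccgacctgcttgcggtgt
HSPA5 (chr9:125241344-125241443, minus strand, ERSE): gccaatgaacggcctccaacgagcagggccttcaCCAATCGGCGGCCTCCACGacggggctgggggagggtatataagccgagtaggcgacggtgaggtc
HERPUD1 (chr16:56931942-56932141, plus strand, CARE, then ERSE-II): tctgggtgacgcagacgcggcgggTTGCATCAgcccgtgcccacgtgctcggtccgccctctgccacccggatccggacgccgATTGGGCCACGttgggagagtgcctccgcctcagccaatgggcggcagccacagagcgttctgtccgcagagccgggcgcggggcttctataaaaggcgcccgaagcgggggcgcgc
SDF2L1 (chr22:21642102-21642301, plus strand, ERSE-II): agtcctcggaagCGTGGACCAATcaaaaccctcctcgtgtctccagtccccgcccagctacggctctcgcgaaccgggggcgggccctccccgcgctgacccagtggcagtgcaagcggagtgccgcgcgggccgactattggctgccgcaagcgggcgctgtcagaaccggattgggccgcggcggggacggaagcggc
CRELD2 (chr22:49918534-49918633, plus strand, ERSE): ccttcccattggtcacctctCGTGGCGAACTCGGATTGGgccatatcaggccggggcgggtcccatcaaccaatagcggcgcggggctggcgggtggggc
ASNS (chr7:97872409-97872508, minus strand, CARE): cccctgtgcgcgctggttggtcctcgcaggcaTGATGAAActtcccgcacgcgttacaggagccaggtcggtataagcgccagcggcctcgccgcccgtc

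The ATF4 branch did not move as 1 block. In untreated tumours 4 of 18 members were called higher than in wt in D4, 6 in D3 and 1 in A3, and 1 was called lower in each clone. Of all genes 9.22%, 9.69% and 10.1% were called higher and 10.9%, 8.4% and 8.36% lower. The count of higher members in D3 was 3 with the replicate number as a block, with only the groups compared or without D3 replicate 2, and 2 without any 1 of D3 replicates 3 and 5 and wt replicates 1 and 2. In D4 it was 1 with only the groups compared or without the 4 most distant arrays, 2 without D4 replicate 4 and 7 with median centring. In A3 it was 2, with ATF5, without wt replicate 1 or A3 replicate 4. Over both branches 4 members were higher and 12 lower in D4, 6 and 8 in D3 and 3 and 7 in A3, against 7 and 10, 7 and 6, and 4 and 6 with median centring, and 4 and 10 in D3 with quantile normalization. The median difference of the branch was 0.10, 0.15 and 0.02, beside 0.05, 0.02 and 0.04 over all genes. The members called higher in D4 and D3 were genes of amino acid uptake and synthesis, MTHFD2 and ATF5, and the members called lower were DDIT3 and VLDLR. In CPA-treated tumours 5, 1 and 1 members were higher than in wt in D4, D3 and A3, and 1 was lower in each, where 7.54%, 6.28% and 6.74% of all genes were higher and 7.59%, 10.1% and 9.6% lower. With only the groups compared 6 were higher in CPA-treated D4, with SHMT2 added, and 2 lower in CPA-treated D3, with VLDLR added.

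SLC7A5 (LAT1), which imports leucine and other large neutral amino acids, showed the largest difference of the branch, and separated both resistant clones from both sensitive lines. In untreated tumours it stood at 10.24, 10.35, 10.68 and 10.36 in D4 and 10.33, 10.32, 10.51 and 10.23 in D3, against 9.65, 9.97 and 9.79 in A3 and 9.71, 9.49, 9.80 and 9.59 in wt. In CPA-treated tumours it stood at 10.54, 10.63, 10.62 and 10.61 in D4 and 10.65, 10.27, 10.53 and 10.29 in D3, against 9.97, 9.75, 9.76 and 9.65 in A3 and 9.95, 9.64, 9.88 and 9.58 in wt. No array of D4 or D3 fell to the level of any array of A3 or wt. Against wt the untreated differences were 0.76 ± 0.11 SE and 0.70 ± 0.11 SE (adjusted p 3.2e-06 and 1.4e-05), and against A3 0.61 ± 0.11 SE and 0.54 ± 0.11 SE (adjusted p 0.00137 and 0.00708). Without A3 replicate 1 the adjusted p of D3 against A3 was 0.0606, and in fits of only the 2 groups those of D4 and D3 against A3 were 0.0954 and 0.0533. In CPA-treated tumours the differences were 0.84 ± 0.11 SE and 0.67 ± 0.11 SE against wt and 0.82 ± 0.11 SE and 0.65 ± 0.11 SE against A3 (highest adjusted p 2.0e-04). Its partner SLC3A2, the heavy chain that carries it to the membrane, stood at 10.20, 10.19, 10.33 and 10.25 in untreated D4, 10.09, 10.14, 10.29 and 10.23 in D3 and 10.07, 10.12 and 10.16 in A3, against 9.93, 9.97, 9.98 and 9.98 in wt. The wt arrays were the low ones, and the differences from wt were 0.28 ± 0.07 SE in D4, 0.22 ± 0.07 SE in D3 and 0.15 ± 0.08 SE in A3 (adjusted p 0.0044, 0.0247 and 0.181). The call in D3 was lost without any 1 of D3 replicates 3 and 5 and wt replicate 1 (adjusted p 0.0625 to 0.0977). In CPA-treated tumours SLC3A2 stood at 10.27, 10.37, 10.24 and 10.46 in D4, 10.34, 10.07, 10.20 and 10.10 in D3 and 10.15, 10.12, 9.98 and 9.91 in A3, against 10.06, 9.98, 10.06 and 10.04 in wt, and it was higher in D4 than in wt (0.30 ± 0.07 SE, adjusted p 0.00295) and A3 (0.30 ± 0.07 SE, adjusted p 0.00594).

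Of the synthesis genes, ASNS, which makes asparagine, stood at 8.72, 8.85, 8.93 and 8.94 in untreated D4 and 8.78, 8.87, 8.79 and 8.90 in D3, against 8.42, 8.48 and 8.43 in A3 and 8.50, 8.49, 8.68 and 8.54 in wt. All arrays of D4 and D3 lay above those of A3 and wt. The differences from wt were 0.31 ± 0.10 SE and 0.28 ± 0.10 SE (adjusted p 0.0254 and 0.0437), and from A3 0.42 ± 0.11 SE and 0.39 ± 0.11 SE (adjusted p 0.0213 and 0.0435). These calls were near the threshold. Against A3, the D4 call was lost without any 1 of D4 replicate 5 and A3 replicates 1 and 4 (adjusted p 0.067 to 0.0898) and the D3 call lost without any 1 of D3 replicates 1, 2, 3 and 5 and A3 replicates 1, 2 and 4 (adjusted p 0.0707 to 0.159). Against wt, the D4 call was lost without any 1 of D4 replicates 4 and 5 and wt replicates 1 and 2 (adjusted p 0.0577 to 0.0713) and the D3 call lost without any 1 of D3 replicates 1, 2, 3 and 5 and wt replicates 1, 2 and 4 (adjusted p 0.0566 to 0.113), the last with adjusted p 0.0805 under the replicate number as a block. In CPA-treated tumours ASNS stood at 9.00, 9.29, 8.74 and 9.36 in D4 and 9.07, 8.83, 8.77 and 8.80 in D3, against 8.62, 8.48, 8.49 and 8.68 in A3 and 8.61, 8.88, 8.67 and 8.60 in wt. It was higher in D4 than in wt (0.41 ± 0.10 SE, adjusted p 0.00393) and than in A3 (0.53 ± 0.10 SE, adjusted p 5.2e-04), and D3 was not called against either (0.18 and 0.30). PSAT1, a serine synthesis enzyme, stood at 9.54, 9.44, 9.54 and 9.47 in untreated D4, 9.36, 9.57, 9.34 and 9.57 in D3 and 9.24, 9.25 and 9.39 in A3, against 9.12, 9.24, 9.27 and 9.33 in wt. It was higher than in wt in D4 (0.26 ± 0.08 SE, adjusted p 0.02) and D3 (0.22 ± 0.08 SE, adjusted p 0.0473, and 0.0518 with the replicate number as a block). The D4 call was lost without any 1 of D4 replicate 4 and wt replicate 1 (adjusted p 0.0516 to 0.0713), and the D3 call lost without any 1 of D3 replicates 2 and 5 and wt replicates 1, 2 and 3 (adjusted p 0.0723 to 0.16). In CPA-treated tumours it stood at 9.63, 9.97, 9.64 and 9.81 in D4, 9.59, 9.51, 9.32 and 9.33 in D3 and 9.33, 9.47, 9.36 and 9.36 in A3, against 9.43, 9.47, 9.47 and 9.40 in wt. There D4 was the high group, by 0.32 ± 0.08 SE over wt, 0.38 ± 0.08 SE over A3 and 0.33 ± 0.08 SE over D3 (adjusted p 0.00498, 0.00168 and 0.0179). The last of these calls was lost without any 1 of D4 replicate 2 and D3 replicate 5 (adjusted p 0.0776 to 0.0823). PHGDH, the enzyme before PSAT1 in serine synthesis, was not called in any comparison, with line differences from -0.18 to -0.01.

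The mitochondrial folate enzymes differed by clone. MTHFD2 stood at 10.79, 10.91, 10.60 and 10.94 in CPA-treated D4, 10.77, 10.52, 10.46 and 10.38 in D3 and 10.54, 10.60, 10.52 and 10.58 in A3, against 10.39, 10.47, 10.53 and 10.44 in wt. It was higher in D4 than in wt (0.36 ± 0.08 SE, adjusted p 0.00166), A3 (0.25 ± 0.08 SE, adjusted p 0.033) and D3 (0.28 ± 0.08 SE, adjusted p 0.0303), with D3 arrays that overlapped. The call against A3 was lost without any 1 of D4 replicates 1, 2 and 5 and A3 replicates 1 and 3 (adjusted p 0.0617 to 0.119), and that against D3 lost without any 1 of D4 replicates 1, 2 and 5 and D3 replicates 3, 4 and 5 (adjusted p 0.0544 to 0.134). In untreated tumours it stood at 10.47, 10.49, 10.65 and 10.59 in D4, 10.49, 10.64, 10.57 and 10.59 in D3 and 10.54, 10.34 and 10.37 in A3, against 10.33, 10.36, 10.31 and 10.41 in wt. Only D3 against wt was called (0.22 ± 0.08 SE, adjusted p 0.0464, and 0.074 with the replicate number as a block), and that call was lost without any 1 of D3 replicates 2, 3 and 5 and wt replicates 1, 2, 3 and 4 (adjusted p 0.0519 to 0.126). SHMT2, the serine hydroxymethyltransferase of mitochondria, was highest in A3. It stood at 10.70, 10.51 and 10.78 in untreated A3, against 10.30, 10.23, 10.18 and 10.24 in wt, and at 10.82, 10.79, 10.61 and 10.55 in CPA-treated A3, against 10.35, 10.33, 10.38 and 10.35 in wt. No A3 array overlapped a wt array of the same treatment, and the differences were 0.43 ± 0.08 SE and 0.34 ± 0.08 SE (adjusted p 4.4e-04 and 0.00237). SHMT2 stood at 10.49, 10.61, 10.56 and 10.59 in CPA-treated D4, against 10.41, 10.45, 10.58 and 10.33 in untreated D4, and at 10.57, 10.33, 10.52 and 10.42 in CPA-treated D3, against 10.29, 10.45, 10.61 and 10.45 in untreated D3. Those groups lay between A3 and wt on average, and none was called against either. With only the groups compared, SHMT2 was called higher in CPA-treated D4 than in wt. ALDH1L2, a low-level folate enzyme at percentile 17, was not called.

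Among the transcription factors, DDIT3 (CHOP), which promotes cell death in lasting ER stress, was lower in the CPA-treated clones and in untreated D4. In CPA-treated tumours it stood at 7.29, 7.09, 6.96 and 7.20 in D4, 7.19, 7.07, 7.20 and 6.60 in D3 and 7.16, 6.91, 6.90 and 6.99 in A3, against 7.46, 7.80, 7.66 and 7.42 in wt. All clone arrays lay below all wt arrays (-0.45 ± 0.13 SE, -0.57 ± 0.13 SE and -0.60 ± 0.13 SE, adjusted p 0.0122, 0.00187 and 0.00101). The D4 call was lost without wt replicate 2 (adjusted p 0.0562). In untreated tumours it stood at 7.24, 7.12, 7.20 and 6.92 in D4, 6.97, 7.43, 7.17 and 7.24 in D3 and 7.37, 7.01 and 7.22 in A3, against 7.51, 7.76, 7.47 and 7.26 in wt. There the call was made for D4 (-0.38 ± 0.13 SE, adjusted p 0.0294), and was lost without any 1 of D4 replicates 2 and 5 and wt replicates 1 and 2 (adjusted p 0.05 to 0.134), while D3 and A3 differed by -0.30 and -0.30 without a call. ATF5, a basic leucine zipper factor downstream of ATF4, stood at 7.50, 7.42, 7.63 and 7.43 in untreated D3, against 7.31, 6.91, 7.22 and 7.19 in wt (0.34 ± 0.10 SE, adjusted p 0.0115). The call was lost without any 1 of D3 replicate 3 and wt replicate 2 (adjusted p 0.0525 to 0.0743). ATF4 itself averaged 8.59 ± 0.16 in untreated D4, 8.57 ± 0.11 in D3 and 8.85 ± 0.11 in A3, against 8.64 ± 0.10 in wt (SD, n = 4, 4, 3 and 4), and was not called in any comparison. ATF3, CEBPB, the pseudokinase TRIB3, the glutathione-degrading enzyme CHAC1 and the eIF2 phosphatase subunit PPP1R15A (GADD34) were not called in any comparison either. With PHGDH, ALDH1L2, CALR and PDIA6 these genes made up the 10 of 34 members without a call in any of 18 comparisons. The share of all genes without any call was not counted, so this number stands without a background. VLDLR, a lipoprotein receptor, stood at 6.67, 6.40, 6.47 and 6.58 in untreated D3 and 6.53, 6.24 and 6.36 in A3, against 7.17, 7.20, 6.83 and 6.62 in wt. It was lower in both (-0.42 ± 0.14 SE and -0.58 ± 0.15 SE, adjusted p 0.0295 and 0.00584), and the D3 call was lost without any 1 of D3 replicates 2 and 3 and wt replicates 1 and 2 (adjusted p 0.0721 to 0.121). It was not called in CPA-treated tumours, where A3 ranged widely (7.20, 6.36, 6.46 and 6.81, against 6.90, 6.78, 7.07 and 6.72 in wt). With only the groups compared, VLDLR was called lower in CPA-treated D3 than in wt.

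**Figure D3:**
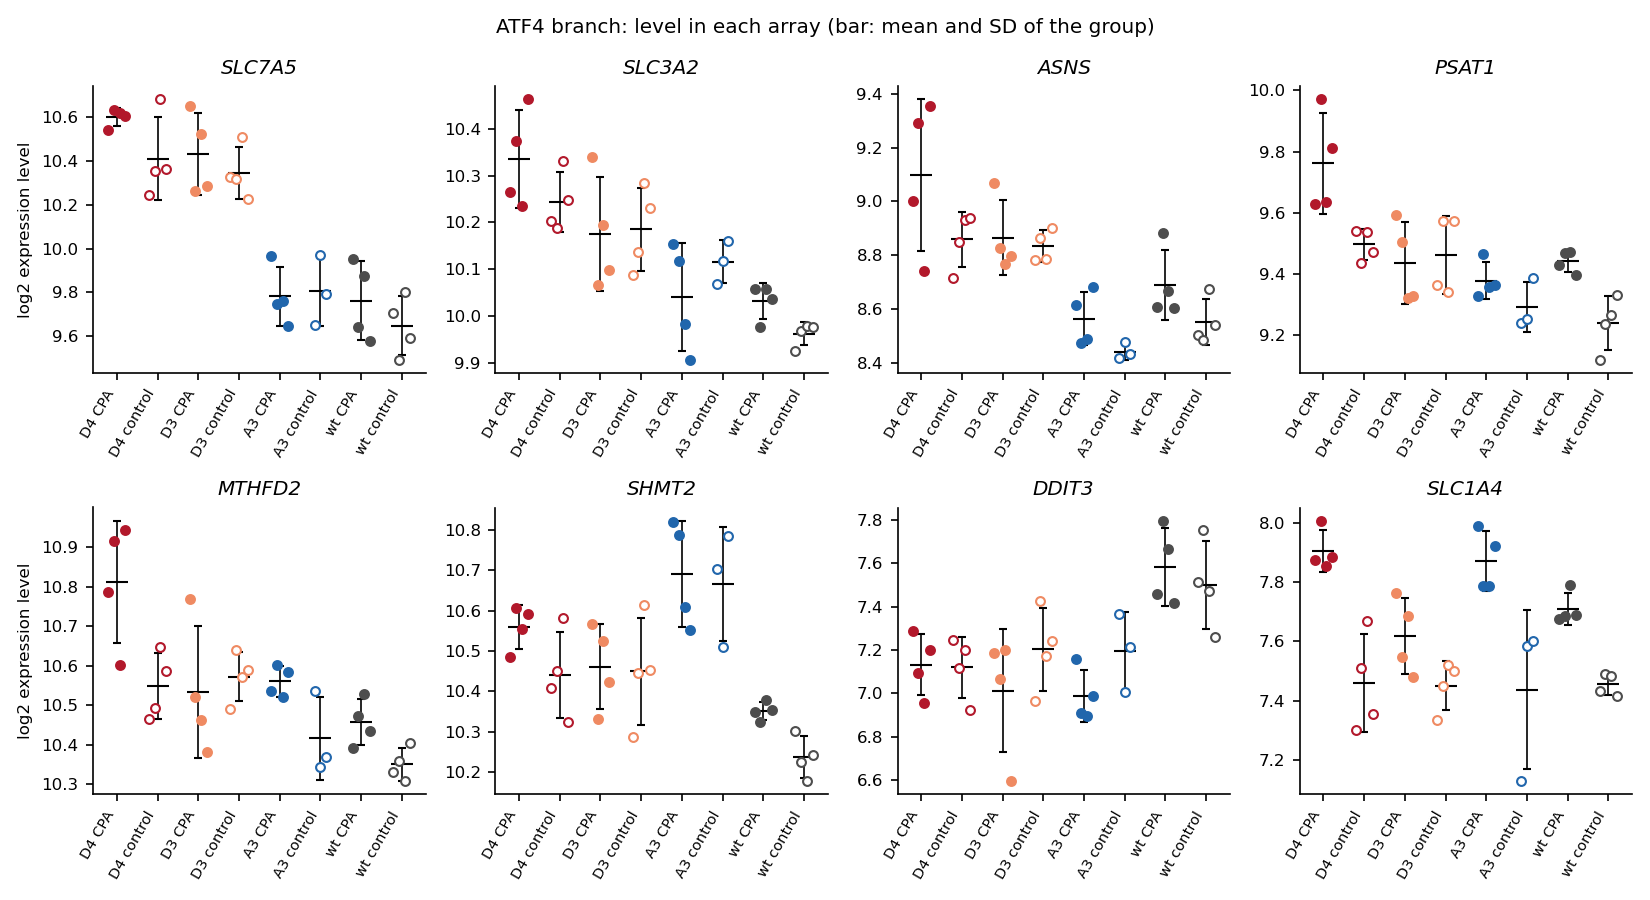
Log2 level of 8 ATF4 branch members in every array. Each point is 1 array, filled for CPA-treated and open for untreated (control) tumours, and the bars give the group mean and SD (n = 3 for untreated A3, otherwise 4). SLC7A5 is higher in every array of D4 and D3 than in any array of A3 and wt, SHMT2 is highest in A3, DDIT3 is highest in wt, and SLC1A4 is higher in the CPA-treated groups of D4 and A3.

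Since untreated and CPA-treated line comparisons used separate arrays, they could be set beside each other. Of the 16 members called between untreated D4 and wt, 15 were called the same way between the CPA-treated tumours, where 16 were called, and SEL1L was not. Of all genes called between untreated D4 and wt, 53.1% were called the same way in CPA-treated tumours, which was 70.6% of those called there. For D3 against wt it was 8 members of 14 untreated and 11 treated, beside 54.7% and 60.5% of all called genes, and for A3 against wt 6 of 10 and 8, beside 63% and 71.3%. For D4 against A3 it was 4 of 4 and 9 (SLC7A5, ASNS, SDF2L1 and CRELD2), beside 67.4% and 20.5%, and for D3 against A3 it was 1 of 3 and 2 (SLC7A5), beside 64.9% and 32.4%. No member was called in opposite directions in untreated and treated tumours of the same lines. D4 and D3 did not differ by a call in untreated tumours, where 0 of 34 members and 0.323% of all genes were called by limma, and 2 members had an unadjusted p under 0.05. The share of all genes under that unadjusted threshold was not counted. With the replicate number as a block the count of called members was 0 as well. In CPA-treated tumours 4 members differed between D4 and D3, with PSAT1, MTHFD2 and SLC1A4 higher in D4 (0.33, 0.28 and 0.29) and MANF lower (-0.23), where 8.05% of all genes were called. That count was 0 without D4 replicate 2 or without D3 replicate 5, and 1 without any 1 of D4 replicates 1 and 5 and D3 replicates 3 and 4. The call of MANF was lost without any 1 of D4 replicates 1, 2 and 5 and D3 replicates 3, 4 and 5 (adjusted p 0.0616 to 0.119), and that of SLC1A4 lost without any 1 of D4 replicates 1, 2 and 5 and D3 replicates 3, 4 and 5 (adjusted p 0.0608 to 0.173).

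**Figure D4:**
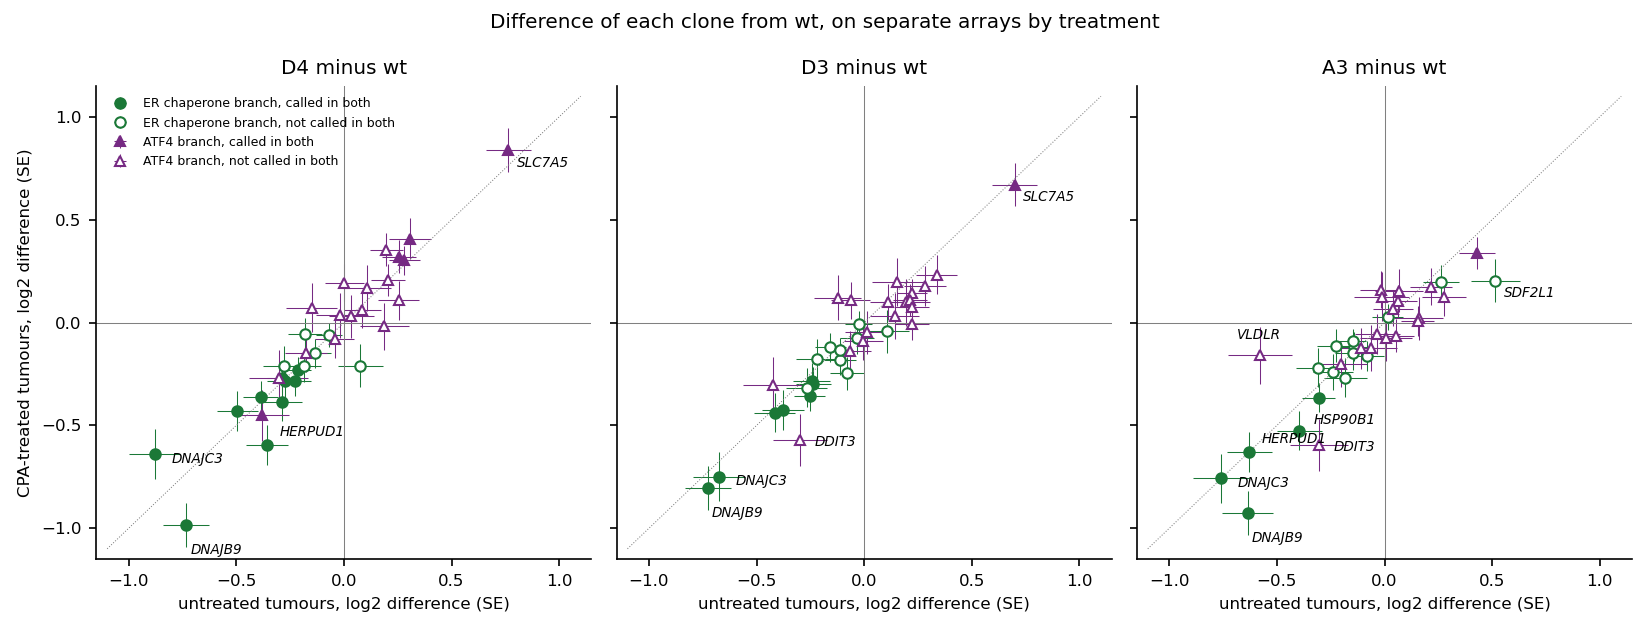
Log2 difference of each clone from wt in untreated (x axis) and CPA-treated tumours (y axis), which used separate arrays. Each point is 1 of the 34 members, circles for the ER chaperone branch and triangles for the ATF4 branch, filled where it was called in both, with bars of 1 SE and a dotted line of equal differences. DNAJB9 and DNAJC3 lie at the lower left in all 3 panels, and SLC7A5 lies at the upper right for D4 and D3.

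The resistant clones differed from the sensitive clone A3, likewise passaged, in fewer members than from wt. In untreated tumours 4 of 34 members were called in D4, where 3.77% of all genes were called, and 3 in D3, where 2.27% were. SLC7A5 and ASNS were higher, as given above, and SDF2L1 was lower in both clones. SDF2L1 stood at 7.69, 7.59, 7.80 and 7.35 in untreated D4 and 7.55, 7.57, 7.67 and 7.75 in D3, against 8.05, 7.97 and 8.12 in A3, without overlap (-0.44 ± 0.11 SE and -0.41 ± 0.11 SE, adjusted p 0.0232 and 0.0483). The D4 call of SDF2L1 was lost without any 1 of D4 replicates 2 and 5 and A3 replicates 1 and 4 (adjusted p 0.0525 to 0.135), and the D3 call lost without any 1 of D3 replicates 1, 2, 3 and 5 and A3 replicates 1, 2 and 4 (adjusted p 0.0613 to 0.221). CRELD2 stood at 7.53, 7.53, 7.77 and 7.55 in untreated D4 and 7.71, 7.66, 7.89 and 7.75 in D3, against 8.06, 7.99 and 8.08 in A3, and was called in D4 (-0.45 ± 0.09 SE, adjusted p 0.00174). In fits of only the 2 groups, no member was called in either comparison. The count for D3 was 0 without A3 replicate 1 and 1 without any 1 of D3 replicates 1, 2 and 5 and A3 replicates 2 and 4, and that for D4 was 2 without any 1 of D4 replicate 5 and A3 replicates 1 and 4. In CPA-treated tumours 9 members were called in D4, where 12.4% of all genes were, and 2 in D3, where 4.55% were. Higher in D4 were SLC7A5, ASNS, PSAT1, SLC3A2 and MTHFD2, and lower were CRELD2, MANF, SDF2L1 and EDEM1 (-0.41, -0.26, -0.41 and -0.25). CRELD2 stood at 7.60, 7.61, 7.58 and 7.43 in CPA-treated D4 and 7.79, 7.66, 7.78 and 7.53 in D3, against 8.10, 7.90, 8.05 and 7.79 in A3 (-0.41 ± 0.08 SE and -0.27 ± 0.08 SE, adjusted p 8.5e-04 and 0.043). SDF2L1 stood at 7.28, 7.47, 7.53 and 7.18 in CPA-treated D4, against 7.89, 8.13, 7.63 and 7.46 in A3, with overlap (adjusted p 0.00969, and 0.0605 without A3 replicate 2). The D3 call of CRELD2 was lost without any 1 of D3 replicates 3 and 5 and A3 replicates 1, 2 and 3 (adjusted p 0.0516 to 0.191), and the D4 calls of EDEM1 and MTHFD2 were lost without any 1 of D4 replicates 1, 2, 4 and 5 and A3 replicates 1 and 4 (adjusted p 0.0594 to 0.113) and lost without any 1 of D4 replicates 1, 2 and 5 and A3 replicates 1 and 3 (adjusted p 0.0617 to 0.119). MANF stood at 10.42, 10.26, 10.40 and 10.40 in CPA-treated D4 and 10.53, 10.63, 10.64 and 10.58 in D3, against 10.57, 10.75, 10.63 and 10.56 in A3 and 10.57, 10.56, 10.64 and 10.64 in wt, and was lower in D4 than in each of the others (adjusted p 0.0334, 0.00822 and 0.012). SLC7A5 and CRELD2 were the members called in D3, and the count there was 1 without any 1 of D3 replicate 5 and A3 replicates 1, 2 and 3.

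CPA changed few of these genes. Of 34 members 1 was called in D4, none in D3, 1 in A3 and none in wt, where 1.03%, 0.231%, 0.352% and 0.0462% of all genes were called by limma, and 5, 1, 3 and 2 members had an unadjusted p under 0.05. The share of all genes under that unadjusted threshold was not counted, so the unadjusted numbers stand without a background. The member called was SLC1A4 (ASCT1), a transporter of serine, alanine and other neutral amino acids. It stood at 7.87, 8.01, 7.85 and 7.89 in CPA-treated D4, against 7.30, 7.51, 7.67 and 7.36 in untreated D4, and at 7.99, 7.79, 7.79 and 7.92 in CPA-treated A3, against 7.13, 7.58 and 7.60 in untreated A3. Treated arrays lay above untreated ones in both lines (0.45 ± 0.09 SE and 0.43 ± 0.10 SE, adjusted p 0.0145 and 0.0365). In the other lines it stood at 7.76, 7.55, 7.68 and 7.48 in CPA-treated D3, against 7.34, 7.45, 7.52 and 7.50 in untreated D3, and at 7.68, 7.68, 7.79 and 7.69 in CPA-treated wt, against 7.43, 7.49, 7.48 and 7.42 in untreated wt. There the differences of 0.17 ± 0.09 SE and 0.25 ± 0.09 SE were not called (adjusted p 0.429 and 1), although in wt the arrays did not overlap either. The D4 call was lost without D4 CPA replicate 2 or D4 control replicate 1 (adjusted p 0.0712 and 0.0773), and 3 members were called without D4 CPA replicate 4. The A3 call was lost without any 1 of A3 CPA replicates 1, 3 and 4 and A3 control replicate 1 (adjusted p 0.155, 0.0584, 0.111 and 0.532). In fits of only the 2 groups, neither call was made (adjusted p 0.107 and 0.611).

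The median difference between CPA-treated and untreated tumours was 0.09, 0.03, 0.05 and 0.08 for the ATF4 branch in D4, D3, A3 and wt, and -0.04, -0.06, -0.04 and -0.01 for the ER chaperone branch. Over all genes it was -0.03, 0.01, -0.00 and 0.01. After SLC1A4, the members with the largest differences in D4 were PSAT1 (0.27 ± 0.08 SE), MTHFD2 (0.26 ± 0.08 SE), ASNS (0.24 ± 0.10 SE) and SDF2L1 (-0.24 ± 0.11 SE), which did not pass the test. DDIT3 differed by 0.01 ± 0.13 SE in D4, -0.19 ± 0.13 SE in D3, -0.21 ± 0.14 SE in A3 and 0.08 ± 0.13 SE in wt. HSPA5 differed by 0.02 ± 0.07 SE, -0.10 ± 0.07 SE, -0.06 ± 0.08 SE and 0.00 ± 0.07 SE in the same order. The CPA effect in the resistant lines D4 and D3 less that in A3 and wt was called for 0 of 34 members and for 0.00578% of all genes, and that of the passaged clones less wt for 0 members and 0% of genes. No member had an unadjusted p under 0.05 in either of these limma contrasts, and the largest member differences were 0.15 for ATF3 in the first and -0.25 for SDF2L1 in the second.

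**Figure D5:**
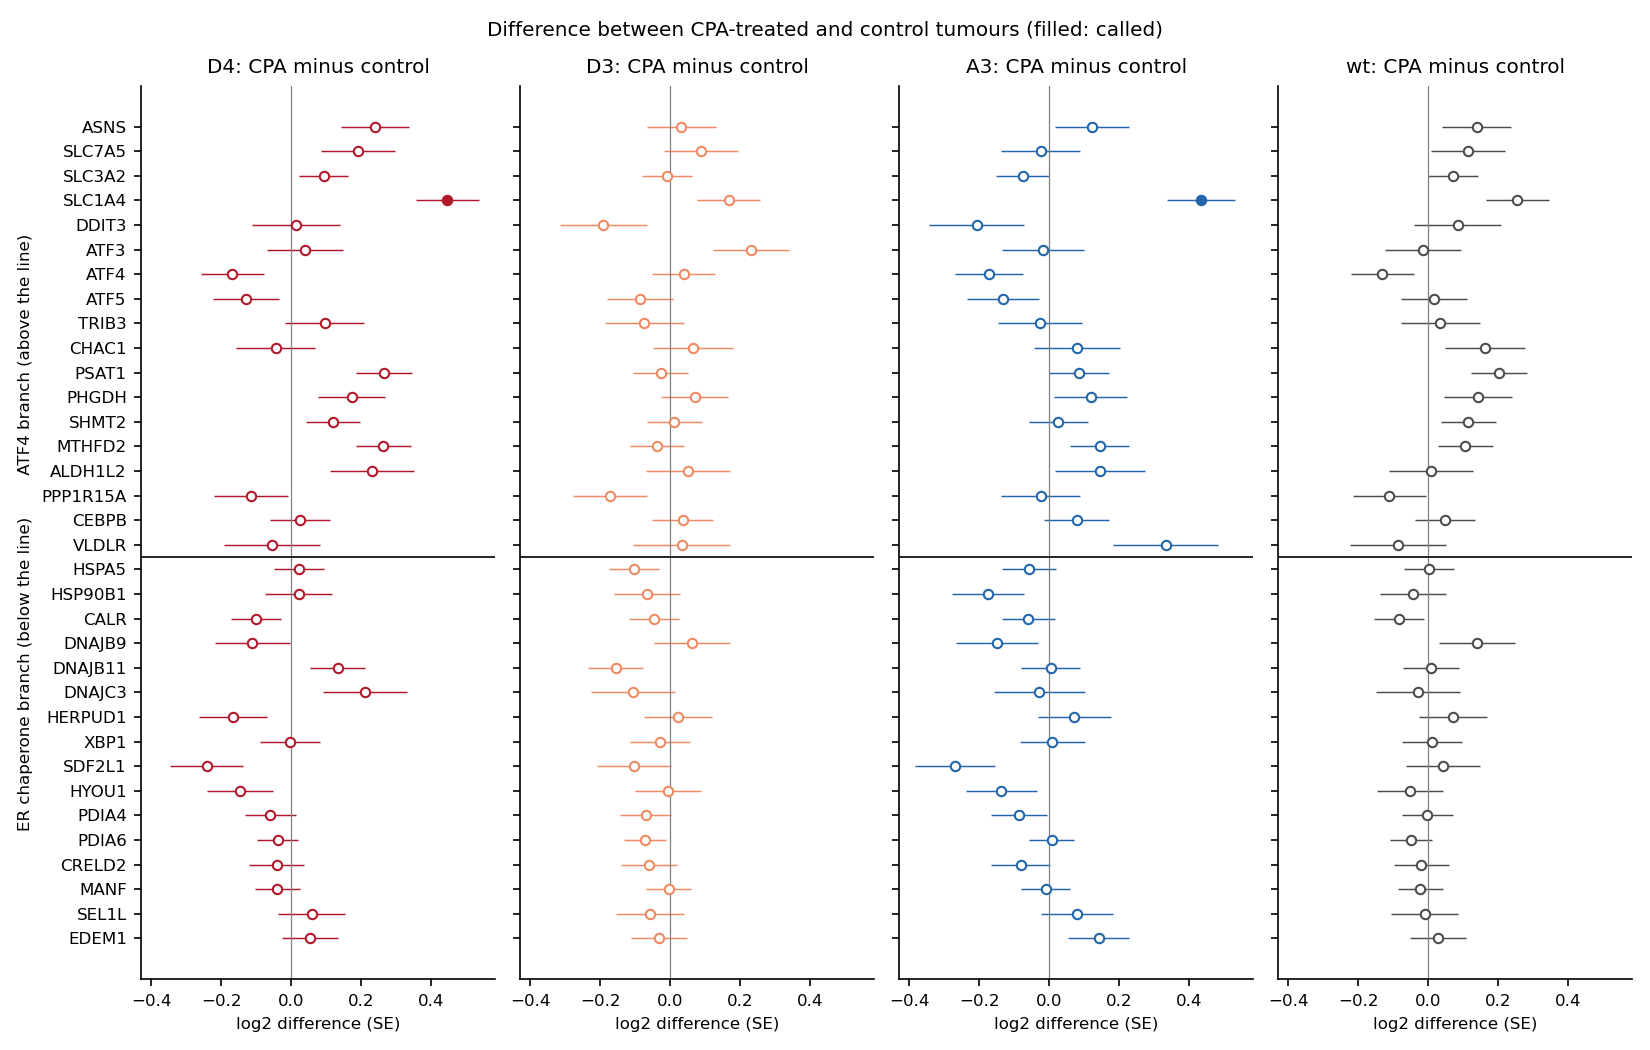
Log2 difference between CPA-treated and untreated (control) tumours for the 34 members in D4, D3, A3 and wt, with bars of 1 SE and filled points for called members. SLC1A4 in D4 (0.45) and A3 (0.43) are the called points, and the ER members below the line lie between -0.27 and 0.21.

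The sensors upstream were measured on the same arrays. Of 15 measured genes of sensing and eIF2 control, 3 were higher and 4 lower than in wt in untreated D4, 2 and 3 in D3 and 1 and 4 in A3. Of all genes 9.22%, 9.69% and 10.1% were called higher and 10.9%, 8.4% and 8.36% lower in D4, D3 and A3. EIF2AK3, the gene of PERK, was lower by -0.59 ± 0.09 SE in D4, -0.65 ± 0.09 SE in D3 and -0.70 ± 0.09 SE in A3 (adjusted p 9.8e-06, 2.8e-06 and 2.6e-06), and by -0.51, -0.55 and -0.65 in CPA-treated tumours. EIF2AK2, the gene of the RNA-activated eIF2 kinase PKR, was lower by -0.66, -0.47 and -0.54 in untreated D4, D3 and A3. ERN1, the gene of IRE1, was lower in A3 (-0.44 ± 0.10 SE, adjusted p 0.00214) and in D4 (-0.28, adjusted p 0.0355). MBTPS1, the protease that cleaves ATF6 first, was higher in untreated D4 than in wt (0.40 ± 0.07 SE, adjusted p 3.8e-05) and A3 (0.53 ± 0.07 SE, adjusted p 1.3e-05), and in CPA-treated D4 than in wt, A3 and D3 (0.42, 0.50 and 0.29). MBTPS2, which makes the following cut, was lower than in wt in D3 (-0.31) and A3 (-0.33), and EIF2B3, a subunit of the exchange factor of eIF2, was higher in D4 (0.37) and D3 (0.37). With 1 array left out, the calls lost among these were EIF2AK2 in A3 without A3 replicate 2, MBTPS2 in A3 without A3 replicate 2 and ERN1 in D4 without any 1 of D4 replicates 2 and 5 and wt replicates 1 and 3. CPA called none of the 15 in any line by limma, and in D4, D3, A3 and wt 1, 1, 1 and 0 had an unadjusted p under 0.05, a threshold at which the share of all genes was not counted.

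Among 26 other measured ATF4 targets, 3 were higher and 7 lower than in wt in untreated D4, 5 and 7 in D3 and 1 and 7 in A3. The shares over all genes were 9.22% and 10.9% in D4, 9.69% and 8.4% in D3 and 10.1% and 8.36% in A3. KLHL24 differed from wt by -1.08, -1.02 and -0.92 in D4, D3 and A3, and STC2, a secreted calcium and phosphate regulator, by -0.57, -0.80 and -1.13 (highest adjusted p 0.0025). The stress cytokine GDF15 was lower in D4 (-0.69) and A3 (-0.93), and the growth factor VEGFA was lower in D3 (-0.70) and A3 (-0.80). The aminoacyl-tRNA synthetase genes AARS1 and YARS1 were higher than in wt in D4 (0.51 ± 0.08 SE and 0.33 ± 0.08 SE) and D3 (0.33 ± 0.08 SE and 0.32 ± 0.08 SE). ALDH18A1, which makes a proline precursor, was lower than in wt in D4 and D3 (-0.31 and -0.34). In CPA-treated tumours 8 of the 26 were higher in D4 than in A3 and 1 was lower, beside 7.41% and 4.97% of all genes. The smallest adjusted p there were those of AARS1 (0.47 ± 0.08 SE, adjusted p 2.0e-04), NARS1 (0.46 ± 0.08 SE, adjusted p 2.5e-04) and YARS1 (0.42 ± 0.08 SE, adjusted p 3.7e-04), all synthetase genes. The named calls of these targets were made in every fit that left out 1 of the arrays compared. CPA called none of the 26 in any line by limma, and in D4, D3, A3 and wt 5, 1, 0 and 1 had an unadjusted p under 0.05, a threshold at which the share of all genes was not counted.

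Of 22 other measured genes of ER folding and export, 6 were lower than in wt in untreated D4, 5 in D3 and 4 in A3. None was higher. Of all genes 10.9%, 8.4% and 8.36% were lower and 9.22%, 9.69% and 10.1% higher. DNAJC10 (ERdj5), a disulfide reductase, was lower by -0.67, -0.46 and -0.74 and the coat protein gene SEC24D by -0.43, -0.40 and -0.43 in D4, D3 and A3 (highest adjusted p 0.0076). KDELR3, a receptor that returns ER proteins, was lower in D4 and D3 than in wt (-0.53 and -0.40), and in D4 than in A3 (-0.48, adjusted p 0.0121, a call lost without A3 replicate 1). In CPA-treated tumours 8, 7 and 7 of the 22 were lower than in wt in D4, D3 and A3, again with none higher. Of all genes 7.59%, 10.1% and 9.6% were lower there and 7.54%, 6.28% and 6.74% higher. Of 16 measured genes of ER-associated degradation, 5, 3 and 3 were lower than in untreated wt in D4, D3 and A3, and 1, 0 and 1 were higher, where 10.9%, 8.4% and 8.36% of all genes were lower and 9.22%, 9.69% and 10.1% higher. The lectin gene ERLEC1 was lower by -0.52 in D4 (adjusted p 9.4e-04) and by -0.44 in A3 (adjusted p 0.00795, lost without A3 replicate 2). SYVN1 (HRD1), the ubiquitin ligase that SEL1L serves, was lower by -0.39 in D3 (adjusted p 0.0106, lost without wt replicate 3). UFD1, which helps pull ubiquitinated proteins from the ER, was higher in A3 than in wt, by 0.48 ± 0.08 SE in untreated and 0.47 ± 0.08 SE in CPA-treated tumours (adjusted p 6.3e-05 and 3.8e-05). CPA called none of these 22 and 16 genes in any line by limma, and in D4, D3, A3 and wt 2, 1, 2 and 0 of the 22 and 4, 1, 1 and 0 of the 16 had an unadjusted p under 0.05. The share of all genes at that unadjusted threshold was not counted.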

How the data were processed

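Total RNA of the tumours was hybridised to 31 Affymetrix Human Gene 1.0 ST arrays. The deposited values are log2 expression levels from RMA, per the submitters' processing notes, which corrects background, quantile normalizes and summarises probes; its version is not given in the sources used here. Of 23989 probe sets, 17624 carried 1 symbol in the platform annotation, 411 several and 5954 none; only the first kind were named. Of several probe sets of a gene, the one with the highest mean was used.

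A linear model was fitted with limma 3.58.1 (R 4.3.3), in 1 fit over the 8 groups (23 residual degrees of freedom), with Benjamini-Hochberg adjustment over all genes. Precision is limited by the number of arrays. The members and lists were chosen with earlier results of these data known. Values in every array were given for called members with the 3 smallest adjusted p per branch, direction and comparison. From other lists, genes were named where they were among the 3 with the smallest adjusted p of a comparison.

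The labels share replicate numbers across groups. Deviations of same-numbered arrays correlated above 0.1 in every pair only for untreated D3 and wt (0.155 to 0.408) and untreated D4 and D3 (0.214 to 0.425), so blocked values stand beside those results. Alternatives were fits of only the groups compared, the replicate block, array weights, median centring, quantile normalization, leaving out the dimmest 30% of genes, each array omitted in turn, the mean of probe sets and, chosen after seeing the data, the 4 farthest arrays left out together.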

Additional observations from a re-analysis of the deposited data

Results flagged for a closer look

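In 126 groups of 4 arrays, over the 18 members whose values are given by array, 7 held 1 array whose gap to the nearest other took over 82.9% of the group's range. Chance alone flags about 1 in 20 groups. SLC1A4 stood at 7.791 in CPA-treated wt replicate 3, with the other arrays at 7.677 to 7.688. VLDLR stood at 6.39 in untreated D4 replicate 5, with the others at 6.713 to 6.752. CRELD2 stood at 7.429 in CPA-treated D4 replicate 5, with the others at 7.581 to 7.607, and at 7.773 in untreated D4 replicate 4, with the others at 7.526 to 7.549. DNAJC3 stood at 8.106 in untreated D3 replicate 3, with the others at 8.284 to 8.304. HSPA5 stood at 11.856 in CPA-treated D4 replicate 4, with the others at 11.936 to 11.95. MANF stood at 10.256 in CPA-treated D4 replicate 2, with the others at 10.395 to 10.423. The calls that these arrays decide are named beside the results.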

How the results depend on the processing

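The 99 calls of a member in a comparison kept their direction in every alternative run, and no value reversed. Of them 63 kept the adjusted p under 0.05 when only the groups compared were fitted, 87 with the replicate block, 96 with array weights, 91 with median centring, 92 with quantile normalization, 99 without the dimmest genes, 99 with the mean of all probe sets, 83 without the 4 farthest arrays (chosen after seeing the data) and 611 of 774 over the fits that left out 1 array. Each member had 1 probe set, so the mean of probe sets left the member values unchanged, as did leaving out the dimmest genes. Those 2 runs could alter a call only through the other genes and do not check the member values. With only the groups compared, the number of members called was 0 for CPA in D4, 0 for CPA in A3, 9 for untreated D3 against wt, 6 for untreated D4 against wt, 0 for untreated D4 and 0 for untreated D3 against A3, 1 for CPA-treated D3 against A3 and 2 for CPA-treated D4 against D3. Of all genes, in the same order, 17, 15, 2861, 1805, 67, 105, 404 and 2634 were called. In the main fit these were 178, 61, 3132, 3482, 653, 393, 787 and 1394. Fits of only the groups compared were not run for the 2 contrasts of CPA effects. With the replicate block the number of members called was 1 for untreated and 1 for CPA-treated D3 against A3. For the comparisons whose same-numbered arrays all correlated above 0.1, it was 10 for untreated D3 against wt and 0 for untreated D4 against D3. Of all genes 324, 750, 3174 and 65 were called in these 4 comparisons, against 393, 787, 3132 and 56 in the main fit. With array weights 3 members were called for CPA in D4, 7 for untreated D4 and 6 for untreated D3 against A3. Of all genes 349, 1644 and 1207 were called there, against 178, 653 and 393 in the main fit. With quantile normalization 1 member was called for CPA-treated D4 against D3, where 983 of all genes were, against 1394 in the main fit. Without the 4 farthest arrays 0 members were called for CPA in D4, 1 for untreated and 1 for CPA-treated D3 against A3 and 1 for CPA-treated D4 against D3. Of all genes 9, 376, 679 and 766 were called there, against 178, 393, 787 and 1394 in the main fit. Fitting only 2 groups, or fewer arrays, leaves fewer degrees of freedom; the cause of the other shifts was not tested. For the fits that left out 1 array, counts over all genes are not given. Leaving out 1 array gave 0 to 3 members for CPA in D4, 0 in D3, 0 to 1 in A3 and 0 in wt. Against untreated wt it gave 11 to 16 for D4, 6 to 12 for D3 and 8 to 11 for A3, against untreated A3 2 to 5 for D4 and 0 to 2 for D3, and 0 for untreated D4 against D3. Against CPA-treated wt it gave 14 to 16 for D4, 9 to 12 for D3 and 7 to 11 for A3, against CPA-treated A3 7 to 9 for D4 and 1 to 2 for D3, 0 to 5 for CPA-treated D4 against D3 and 0 for both contrasts of CPA effects.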
